A study of Mus musculus with 6 samples.

Results

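The mouse Ly6 genes Ly6c1, Ly6c2, Ly6g, Ly6a, Ly6e and Ly6i and the gene of the neutrophil antigen CD177 were read by name from 6 RNA-seq libraries, and 6 of these 7 genes had a row among the 23284 gene names. Ly6g, the neutrophil antigen gene of the family, was not analysed here. Sorting by EGFP fluorescence gave the cells, taken from the calvaria (skull cap) of CX3CR1-EGFP mice, whose reporter sits in the fractalkine receptor locus and lights up monocytes and related myeloid cells. All mice had received lipopolysaccharide (LPS), a bacterial membrane component that provokes inflammation, at the calvarial periosteum. Together with the LPS, 1 group received CTLA4-Ig at 10 mg/kg (abatacept, the outer domain of CTLA-4 joined to an antibody Fc part, which binds CD80 and CD86), and the other received whole human IgG, also at 10 mg/kg. Cells were sorted after 5 days, with 3 libraries per group. No group without LPS was analysed here, the labels give no age, and they do not say which animals each library came from, so p-values measure the spread between these libraries.

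Ly6 proteins are small, cysteine-rich proteins that a glycosylphosphatidylinositol (GPI) anchor holds on the outer face of the cell membrane, and CD177 carries such an anchor too. Ly6C is abundant on classical, inflammatory monocytes, a population that includes osteoclast precursors, and is lower on non-classical monocytes, and antibodies called anti-Gr-1 bind both Ly6G and Ly6C. Ly6A (Sca-1) marks haematopoietic stem cells and is, like Ly6E, induced by interferons, while CD177 sits on neutrophils.

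Values are FPKM, fragments scaled by the authors for transcript length and library depth, so levels can be compared between genes. Depth, estimated from steps between small FPKM values, was 9370000 to 11400000 fragments in the CTLA4-Ig libraries and 9480000 to 10300000 in the control libraries. Cx3cr1, whose locus drives the reporter, stood at 16.6 to 26.5 FPKM with CTLA4-Ig and 12.3 to 32.5 FPKM with control IgG. Control library 1 stood apart in several gene groups. The median level of its 34 measured interferon-stimulated genes was 0.72 below the 6-library mean of such medians on the log2 scale. That of its 13 non-classical monocyte markers was 0.59 below. In the same library Chi3l3, a chitinase-like gene of monocytes and macrophages, stood at 14245 FPKM, against 4186 to 5420 FPKM in the other control libraries.

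The family spanned a wide range of levels. Ly6c2 averaged 2250 FPKM over the 6 libraries, Ly6e 632 FPKM, Cd177 396 FPKM, Ly6a 23.6 FPKM, Ly6c1 18.6 FPKM and Ly6i 9.07 FPKM. Among neighbours in this order only Ly6a and Ly6c1 overlapped, with Ly6a at 18.1 to 27.6 FPKM and Ly6c1 at 14.9 to 23.2 FPKM. Ly6a was above Ly6c1 in 3 of 3 CTLA4-Ig libraries and in 1 of 3 control libraries. Ly6c2 ranked between 28 and 31 of 23284 genes in every library, Ly6e between 138 and 161 and Cd177 between 172 and 297.

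No member passed the test between the groups. Values were compared as log2(FPKM + 1) with limma over 10865 genes averaging 1 FPKM or more, a filter that all 6 members passed, and 0 members and 0 genes (0% of those tested) had a Benjamini-Hochberg adjusted p under 0.05. At an unadjusted p under 0.05 there were 2 members, Ly6i and Cd177, beside 659 of all genes tested (6.07%; 4.09% higher and 1.98% lower with CTLA4-Ig). The same 2 members were the ones whose groups did not overlap, both higher with CTLA4-Ig, where 6.50% of all genes tested lay entirely higher with CTLA4-Ig and 5.69% entirely lower. Without control library 1 there were 3 such members, Ly6e with lower values joining them, beside 26.2% of all genes in either direction. Of the 6 members 3 had a positive and 3 a negative log2 fold change, while the median over all genes tested was -0.01. A log2 fold change on this scale understates the change of low genes such as Ly6i.

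**Figure D1:**
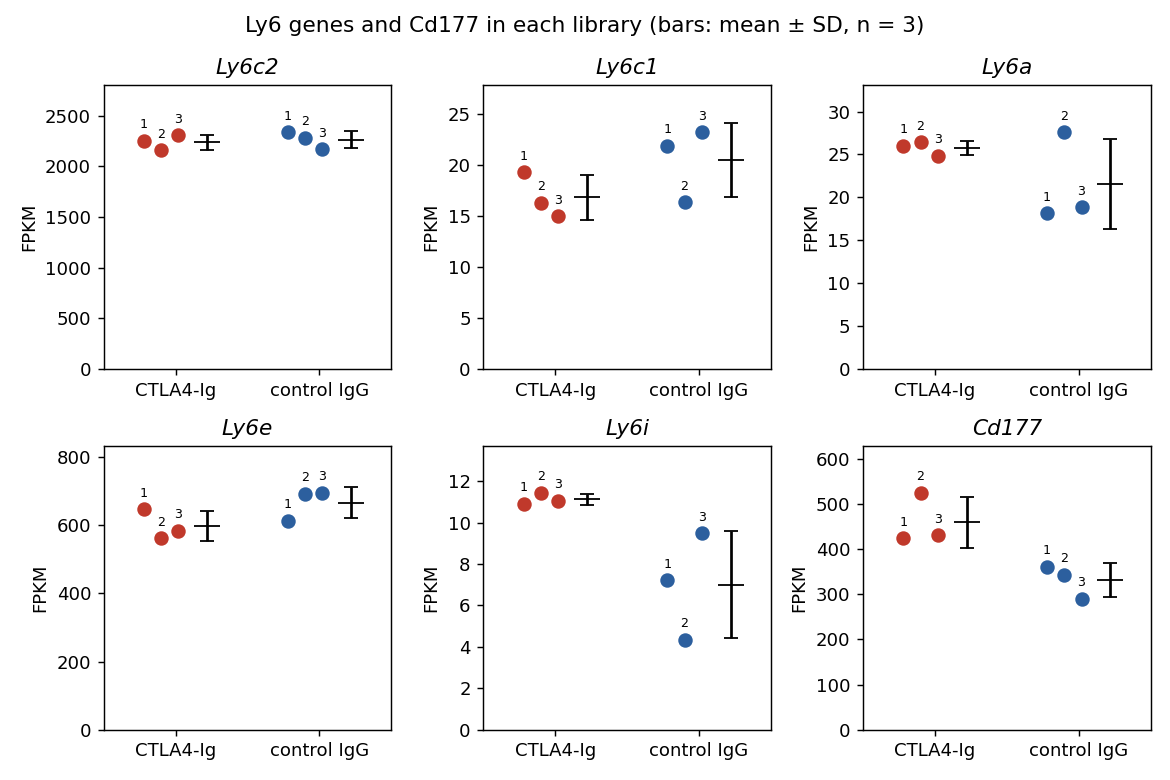
FPKM (vertical axes, from 0) of Ly6c2, Ly6c1, Ly6a, Ly6e, Ly6i and Cd177 in each of the 3 CTLA4-Ig and 3 control IgG libraries (numbered points), with the mean and SD beside them. Only Ly6i and Cd177 have CTLA4-Ig libraries that all lie above the control libraries, and the groups of Ly6c2 overlap.

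Ly6c2, the main gene of the Ly6C antigen in these cells, differed between the groups by less than the spread of the libraries. It stood at 2253, 2157 and 2304 FPKM in CTLA4-Ig libraries 1, 2 and 3, and at 2335, 2281 and 2167 FPKM in control libraries 1, 2 and 3. The groups overlapped, and neither mean, 2238 ± 74.2 FPKM with CTLA4-Ig or 2261 ± 85.6 FPKM with control IgG (SD, n = 3 each), lay more than its SD from the other. The log2 fold change was -0.01 with a 95% interval from -0.19 to 0.16 (limma, Benjamini-Hochberg adjusted p = 0.987), and its sign turned to 0.01 with quantile normalization. In bulk libraries a level reflects both how many cells carry a transcript and how much each carries, and these cannot be told apart.

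Other markers of classical monocytes mostly had lower values with CTLA4-Ig, though 0 passed. Of 14 such markers, which do not include Ly6c2, 13 were lower, with a median log2 fold change of -0.24, beside -0.01 for all genes tested. Their summed level was 8925 to 9356 FPKM in CTLA4-Ig libraries and 8591 to 19033 FPKM in control libraries, highest in control library 1. A large part of each sum was 1 gene, Chi3l3, at 4961 to 5521 FPKM with CTLA4-Ig. In control libraries 1, 2 and 3 Chi3l3 stood at 14245, 5420 and 4186 FPKM. Ms4a6c, a membrane protein gene of the MS4A family, averaged 381 ± 49.0 FPKM in CTLA4-Ig libraries and 485 ± 24.6 FPKM in control libraries (SD, n = 3 each). It was the only 1 of the 14 markers whose groups did not overlap with CTLA4-Ig lower, where 5.69% of all genes tested lay entirely lower. Ms4a4c, of the same family, had the next smallest p of the list, with 69.1 ± 13.01 FPKM in CTLA4-Ig libraries and 89.1 ± 6.08 FPKM in control libraries (SD, n = 3 each). Of 13 non-classical monocyte markers 10 were higher, with a median log2 fold change of 0.13, led by the integrin gene Itgal with 0.14 and the nuclear receptor gene Nr4a1 with 0.30, and 0 passed. Without control library 1 the median of the non-classical list was -0.09.

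Ly6c1, the close copy of Ly6c2 that is also used by endothelial and T cells, was far below Ly6c2, whose FPKM was 117, 132 and 154 times higher in CTLA4-Ig libraries 1, 2 and 3 and 107, 140 and 93.4 times higher in control libraries 1, 2 and 3. It stood at 19.3, 16.3 and 14.9 FPKM in CTLA4-Ig libraries 1, 2 and 3, and at 21.9, 16.3 and 23.2 FPKM in control libraries 1, 2 and 3. Control library 2 lay within the CTLA4-Ig range and the other control libraries lay above it. The log2 fold change was -0.26 ± 0.15 (SE; limma, Benjamini-Hochberg adjusted p = 0.870), with -0.41 without control library 2 and -0.17 without control library 3. Ly6c1 made up 0.747 ± 0.102% of the sum of both genes in CTLA4-Ig libraries and 0.899 ± 0.176% in control libraries (SD, n = 3 each). With the FPKM of both genes added, a sum that is nearly all Ly6c2, the log2 fold change was -0.02 (limma, Benjamini-Hochberg adjusted p = 0.986).

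The copies are so alike that counting could split their reads, which makes the low Ly6c1 value uncertain. Both coding sequences are 393 bases long and align without a gap, with 384 identical and 9 differing bases (97.7% identity; GENCODE M21, GRCm38). The opening 120 bases of each coding sequence, from the reference transcripts, hold 6 of the 9 differing bases, which stand in capitals here.
Ly6c1: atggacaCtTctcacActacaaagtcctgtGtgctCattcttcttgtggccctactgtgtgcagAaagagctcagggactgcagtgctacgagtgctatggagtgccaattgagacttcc
Ly6c2: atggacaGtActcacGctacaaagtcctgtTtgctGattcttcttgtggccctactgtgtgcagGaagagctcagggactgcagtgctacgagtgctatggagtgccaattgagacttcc
Of the 50-base stretches of the Ly6c1 transcript, 31.7% also occur letter for letter in a Ly6c2 transcript, and of its 100-base stretches 15.3% do. The sources used here give neither the read length nor the treatment of reads that match several genes. How many Ly6c2 reads were counted for Ly6c1, or the reverse, was not tested.

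The promoters of the copies differ more than their coding sequences. The RefSeq window of 250 bases before to 50 after the start, in GRCm38.p6, is at chr15:75048788-75049087 for Ly6c1 and at chr15:75111922-75112221 for Ly6c2, both on the minus strand. Over 266 aligned bases 208 were identical (78.2%). The windows are printed because these genes, nearly the same in their coding sequence, lie that far apart in level, and capitals mark GAGGAAG, a core of the sequence bound by the myeloid factor PU.1, searched on both strands.
Ly6c1: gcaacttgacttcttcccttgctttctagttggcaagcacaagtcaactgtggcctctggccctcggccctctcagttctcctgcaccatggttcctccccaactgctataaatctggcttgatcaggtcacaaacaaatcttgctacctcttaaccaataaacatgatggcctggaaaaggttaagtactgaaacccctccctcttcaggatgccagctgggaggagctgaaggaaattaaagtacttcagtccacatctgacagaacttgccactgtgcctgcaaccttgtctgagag
Ly6c2: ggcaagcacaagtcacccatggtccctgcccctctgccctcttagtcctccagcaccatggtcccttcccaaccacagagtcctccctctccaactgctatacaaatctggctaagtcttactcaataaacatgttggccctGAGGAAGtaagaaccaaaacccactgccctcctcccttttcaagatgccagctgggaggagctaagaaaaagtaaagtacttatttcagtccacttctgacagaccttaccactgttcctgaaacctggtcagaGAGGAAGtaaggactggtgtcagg
The Ly6c2 window held 2 GAGGAAG matches and the Ly6c1 window 0, where 13.6% of 32817 promoter windows held at least 1. A second Ly6c1 window, which lies further downstream and overlaps this one, held 1 match. The printed Ly6c1 window ends within that match, so the count depends on the start chosen. The window of Cd177 held 0 GAGGAAG matches. The motifs named ISRE, GAS and C/EBP were searched too, and each had 0 matches in the Ly6c1, Ly6c2 and Cd177 windows. At least 1 match was held by 3.43% (ISRE), 8.29% (GAS) and 10.8% (C/EBP) of the 32817 promoter windows. GAGGAAG was thus the only motif searched that set the copies apart. Windows of Ly6a, Ly6e and Ly6i were not analysed here.

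Ly6a, which encodes the stem cell antigen Sca-1, had an even level with CTLA4-Ig and a split one with control IgG. It stood at 26.0, 26.4 and 24.9 FPKM in CTLA4-Ig libraries 1, 2 and 3, and at 18.1, 27.6 and 18.9 FPKM in control libraries 1, 2 and 3. Control library 2 was above all CTLA4-Ig libraries and the other control libraries were below them. The log2 fold change was 0.27 ± 0.15 (SE; limma, Benjamini-Hochberg adjusted p = 0.869), with 0.17 without control library 1 and 0.46 without control library 2. Stem and progenitor markers ranged from near 0 to about the level of Ly6a, with Flt3, a receptor of progenitors, at 46.6 FPKM in control library 1. Of the 9 markers on this list 6 passed the filter on low values, 4 were higher and 2 lower, 0 passed in limma, and the median log2 fold change was 0.19. Without control library 1 that median was 0.03, and without CTLA4-Ig library 3 it was 0.08. The leading genes were Gata2, a transcription factor of progenitors and mast cells, at 0.28, and Hlf, a stem cell transcription factor, at 0.31. The summed level of the 9 markers was 65.0 to 84.8 FPKM with CTLA4-Ig and 68.6 to 81.6 FPKM with control IgG.

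Ly6i, a less studied member of the family, had the largest difference of the 6 genes in log2 terms and the lowest level. It stood at 10.9, 11.4 and 11.1 FPKM in CTLA4-Ig libraries 1, 2 and 3, and at 7.21, 4.33 and 9.48 FPKM in control libraries 1, 2 and 3. All CTLA4-Ig libraries lay above all control libraries, and control library 2 was the lowest. The log2 fold change was 0.65 with a 95% interval from 0.11 to 1.19 (limma, Benjamini-Hochberg adjusted p = 0.732), and 0.39 without control library 2. The mean was 11.1 ± 0.267 FPKM in CTLA4-Ig libraries and 7.0 ± 2.58 FPKM in control libraries (SD, n = 3 each). A rough conversion by depth and transcript length put 43 to 120 fragments behind each Ly6i value.

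Ly6i and Ly6a varied more among the control libraries than among the CTLA4-Ig libraries. The coefficient of variation of Ly6i was 2.40% over the CTLA4-Ig libraries and 36.9% over the control libraries, and that of Ly6a was 3.12% and 24.5%. Counting error alone was roughly 10.7% for Ly6i and 8.23% for Ly6a, so the spread over the CTLA4-Ig libraries was below it. The ratio of control to CTLA4-Ig variation was 15.4 for Ly6i and 7.85 for Ly6a, values reached by 0.628% and 2.17% of the genes with both, while the median ratio was 1.12. Ly6c1, which also had control library 2 apart from the other control libraries, varied by 13.1% over the CTLA4-Ig libraries and 17.8% over the control libraries. This pair was chosen after its values were seen, and the difference in spread was not tested. In control libraries 1 and 3 both Ly6a and Ly6i lay below all CTLA4-Ig libraries. They differed in control library 2, where Ly6i was lowest and Ly6a highest. Their coding sequences are 86.3% identical over 402 bases, and 4.03% of the 50-base stretches of Ly6a occur in Ly6i transcripts. Both genes overlap the long noncoding gene Gm28068 in position, which was not analysed here.

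Ly6e, also called Sca-2 and a gene that restricts the entry of some viruses, was slightly lower with CTLA4-Ig. It stood at 647, 561 and 584 FPKM in CTLA4-Ig libraries 1, 2 and 3, and at 613, 691 and 695 FPKM in control libraries 1, 2 and 3. CTLA4-Ig library 1 lay above control library 1, so the groups overlapped. The log2 fold change was -0.16 ± 0.08 (SE; limma, Benjamini-Hochberg adjusted p = 0.863), with -0.22 without control library 1 and -0.11 without CTLA4-Ig library 2. With control library 1 left out the groups did not overlap and the adjusted p in limma was 0.594.

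Interferon-stimulated genes, set beside Ly6a and Ly6e because interferons induce both, had a median near 0. Of 38 such genes 34 passed the filter, 22 were higher and 12 lower with CTLA4-Ig, 0 passed in limma, and their median log2 fold change was 0.06. Slfn1, of the Schlafen family, led the list at 0.19, followed by the guanylate-binding protein gene Gbp5 at -0.34. By median level of this list control library 1 was the lowest of the 6 libraries, 0.72 below the mean of the medians. Control library 3 was the highest, at 0.36 above. Of the members, Ly6a was lowest in control library 1, Ly6i in control library 2 and Ly6e in CTLA4-Ig library 2. Without control library 1 the median log2 fold change of the list was -0.28.

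**Figure D2:**
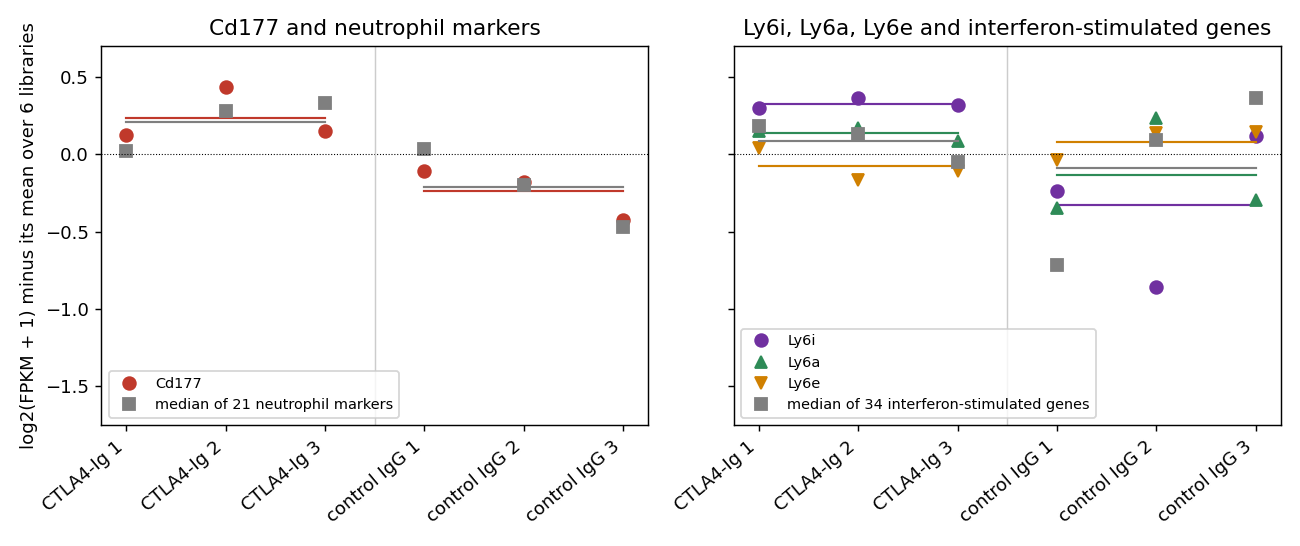
Centred log2(FPKM + 1) in each library (horizontal axis), with horizontal lines at group means. At left are Cd177 and the median level of 21 neutrophil markers, both higher on average with CTLA4-Ig. At right are Ly6i, Ly6a, Ly6e and the median level of 34 interferon-stimulated genes, which is lowest in control library 1, where Ly6i is not. The gene at the median can differ between libraries.

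Cd177, the neutrophil antigen gene on chromosome 7 (24743983 to 24760334, GRCm38), had the smallest p of the members. It stood at 424, 524 and 431 FPKM in CTLA4-Ig libraries 1, 2 and 3, and at 361, 344 and 290 FPKM in control libraries 1, 2 and 3. Every CTLA4-Ig library lay above every control library. The mean was 460 ± 56.2 FPKM in CTLA4-Ig libraries and 331 ± 37.3 FPKM in control libraries (SD, n = 3 each), a ratio of 1.39. The log2 fold change was 0.47 with a 95% interval from 0.19 to 0.75 (limma, Benjamini-Hochberg adjusted p = 0.720), and it was 0.37 to 0.53 when single libraries were left out. Set against Ly6c2 in the same library, Cd177 was 0.206 ± 0.0321 of its FPKM in CTLA4-Ig libraries and 0.146 ± 0.0112 in control libraries (SD, n = 3 each). Part of its transcript matches other genes, with 5.74% of its 50-base stretches also in transcripts of BC049730 or Gm4763.

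Most neutrophil markers had higher values with CTLA4-Ig too, while Ctsg, Prtn3, Elane and Mpo had log2 fold changes of -0.13 to -0.01. Of 21 such markers, which do not include Cd177, 17 were higher and 4 lower with CTLA4-Ig, 12 had groups that did not overlap, all higher (6.50% of all genes tested did so), and 0 passed in limma. Their median log2 fold change was 0.52, beside 0.47 for Cd177 and -0.01 for all genes tested. The summed level of the list, mostly S100a8 and S100a9, was 176850 to 243780 FPKM in CTLA4-Ig libraries and 137600 to 156670 FPKM in control libraries. Of the 21 markers 0 were at 0. Cebpe, a transcription factor of neutrophil granule formation, and Chi3l1, a chitinase-like gene, led the list at 0.52 and 0.71. With quantile normalization, which gives all libraries the same set of values, the median log2 fold change of the list was 0.19 and that of Cd177 0.46. Centred on its 6-library mean, the median level of the list was 0.02, 0.28 and 0.33 in CTLA4-Ig libraries 1, 2 and 3. In control libraries 1, 2 and 3 it was 0.03, -0.20 and -0.47. The gene at the median differed between libraries, with Fcnb (548 FPKM) in CTLA4-Ig library 1 and Mmp8 (553 FPKM) in control library 1. Fcnb itself stood at 371 FPKM in control library 1. Of the markers whose groups overlapped, only Csf3r was higher in CTLA4-Ig library 1 (97.1 FPKM) than in control library 1 (87.7 FPKM). The others, such as Prtn3, were lower there. The part of the neutrophil markers in the Cd177 difference was not tested.

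The known partners of CD177 were mixed. In human neutrophils CD177 binds the serine protease proteinase 3 (Prtn3), works with the integrin Mac-1 (Itgam and Itgb2), and binds PECAM-1. Itgb2 stood at 415, 433 and 409 FPKM in CTLA4-Ig libraries and 352, 375 and 357 FPKM in control libraries, groups that did not overlap, with a log2 fold change of 0.21 ± 0.06 (SE; limma, Benjamini-Hochberg adjusted p = 0.720). Itgam had a log2 fold change of 0.21, Pecam1 0.14 and Prtn3, which is also on the neutrophil list, -0.12, and 0 of the 4 passed.

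**Figure D3:**
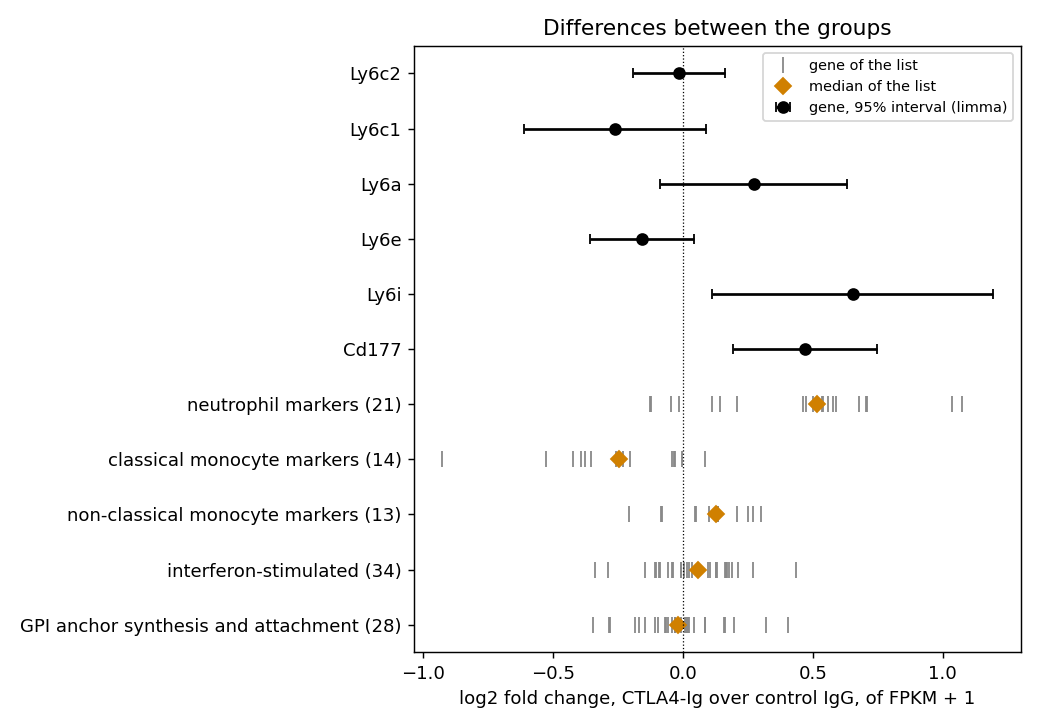
Log2 fold change of FPKM + 1, CTLA4-Ig over control IgG (horizontal axis), for the 6 members (points with 95% intervals from limma) and for 5 gene lists (grey ticks for genes, diamonds for medians, the number of genes tested in brackets). The intervals of Ly6i and Cd177 lie above 0, the neutrophil markers have a median of 0.52 and the classical monocyte markers one of -0.24.

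The 6 Ly6 members lie in 1 cluster on chromosome 15, with 204104 bases from the start of Ly6e (74955025) to the end of Ly6g (75159128, GRCm38). From 500 kb before to 500 kb after them RefSeq lists 23 genes with names of this family, of which 18 had values. Of these 18, 7 were listed at 0 in all 6 libraries, 3 averaged under 1 FPKM and 8 averaged at least 1 FPKM. The 5 Ly6 members with values stand next to each other in the order Ly6e, Ly6i, Ly6a, Ly6c1 and Ly6c2, and their expressed neighbours on the other side of genes at or near 0 were Ly6d, Ly6k and Lynx1. Ly6d, a marker of lymphoid precursors, stood at 108, 97.8 and 99.4 FPKM with CTLA4-Ig and 30.2, 107 and 104 FPKM with control IgG. Control library 1 was the low one and the other 5 libraries were alike, and the log2 fold change was 0.54 ± 0.46 (SE; limma, Benjamini-Hochberg adjusted p = 0.904). Ly6k averaged 1.104 FPKM with CTLA4-Ig and 1.87 FPKM with control IgG, and Lynx1, a modulator of nicotinic acetylcholine receptors, 1.66 and 1.32 FPKM.

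**Figure D4:**
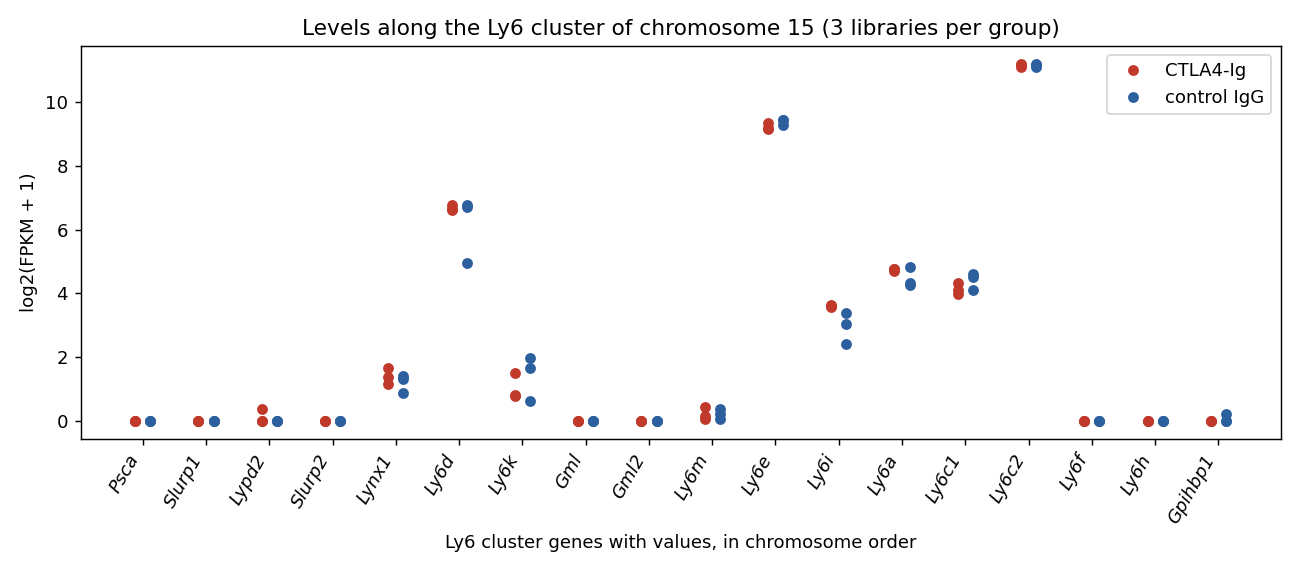
Level as log2(FPKM + 1) of the 18 Ly6 cluster genes with values, in chromosome order, with 3 CTLA4-Ig and 3 control IgG libraries per gene (points). Ly6c2 and Ly6e stand highest, Ly6d follows with control library 1 apart, and genes at both ends of the cluster are at or near 0.

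Outside the 7 listed genes the wider Ly6 and urokinase receptor family was mostly at or near 0. Of 33 other family genes 31 had a row, 17 of them were listed at 0 in all libraries and 5 passed the filter on low values, of which 4 were higher and 1 lower with CTLA4-Ig, with a median log2 fold change of 0.35 and 0 passing in limma. That median was 0.06 when low genes were kept, and 0.04 without control library 1. Plaur, the urokinase receptor gene with the same protein fold, stood at 97.8, 117 and 93.5 FPKM with CTLA4-Ig and 80.0, 79.0 and 81.9 FPKM with control IgG, groups that did not overlap. The groups of Ly6g5b overlapped, at a log2 fold change of 0.77 ± 0.35 (SE).

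The machinery that makes and attaches GPI anchors, on which these proteins depend, had no common direction. All 28 genes of that list passed the filter, 13 were higher and 15 lower with CTLA4-Ig, 0 passed in limma and the median log2 fold change was -0.02, beside -0.01 for all genes. Pigf, which helps add the ethanolamine phosphate bridge, had -0.28 and Pigp, of the enzyme complex of the initial step, had 0.40.

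Markers of other cells differed widely in level. Endothelial markers, of interest because Ly6c1 and Ly6a are used by endothelium, summed to 9.79 to 11.7 FPKM with CTLA4-Ig and 6.15 to 9.37 FPKM with control IgG, and 2 of 6 passed the filter, with Egfl7 at 0.50 and Cdh5 at 0.12. T cell markers summed to 13.7 to 17.4 FPKM with CTLA4-Ig and 10.6 to 20.2 FPKM with control IgG, and the median log2 fold change of the 6 that passed the filter was -0.02, running from -0.24 without control library 1 to 0.10 without CTLA4-Ig library 1. B cell markers summed to 13.3 to 17.4 FPKM with CTLA4-Ig and 13.2 to 17.7 FPKM with control IgG, with a median of -0.08 over 2 genes. NK cell markers summed to 93.0 to 137.5 FPKM with CTLA4-Ig and 112.6 to 130.1 FPKM with control IgG, with a median of -0.15 over 5 genes. The medians were 0.11 for 3 stromal and osteoblast markers, 0.16 for 6 dendritic cell markers and 0.31 for 3 eosinophil markers, and 0 genes of these lists passed in limma. Without control library 1 the stromal median was -0.43 and the dendritic median -0.11, while the eosinophil median ran from 0.18 to 0.52 when single libraries were left out. Eosinophil markers, mostly the granule protein gene Prg2, summed to 349 to 834 FPKM in CTLA4-Ig libraries and 401 to 467 FPKM in control libraries. No marker of these lists was at 0 in all 6 libraries, and the part of such cells in the Ly6c1 and Ly6a values was not tested.

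The genes closest to each member over the 6 libraries were ranked by the root mean square distance of centred log2 profiles, among genes averaging 10 FPKM or more. For Cd177 they were Pglyrp1, a peptidoglycan recognition protein of neutrophil granules, at 0.0342, and Slc17a9 and Slc27a4 at 0.0481 and 0.0546, where Cd177 itself varied by 0.272 around its mean. Pglyrp1 stood at 1026, 1262 and 1108 FPKM in CTLA4-Ig libraries and 909, 834 and 719 FPKM in control libraries, the same order of libraries within each group as Cd177. For Ly6e the closest were 4930453N24Rik, Scarb2 and Dpy19l1, at 0.0225 to 0.0304, and for Ly6c2 the closest was Zhx1, at 0.0159. For Ly6a they were Arl3, Lmo1 and Cdca7l, at 0.0883 to 0.1, and for Ly6c1 Gcsh, B3gnt8 and Ctsc, at 0.0761 to 0.101. For Ly6i they were Fam100b, Klf2 and Hist1h1c, at 0.202 to 0.245, where Ly6i itself varied by 0.434 around its mean. Ly6c2 varied by 0.0428, Ly6e by 0.116, Ly6a by 0.231 and Ly6c1 by 0.222. Distances grow with such variation, so they do not rank the members by closeness of match. These are descriptions over 6 libraries chosen from at least 6601 genes.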

How the data were processed

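RNA from sorted calvarial EGFP-positive cells was sequenced in 6 libraries, 3 per group, grouped by their labels. The authors deposited FPKM values per gene name. Per the submitters' processing notes Cuffnorm 2.2.1, TopHat2 2.0.13, SAMtools 0.1.19 and Bowtie2 2.2.3 were used with the mouse build mm10. The sources used here give no settings, annotation or strand option. Per the labels' protocols the kit was a stranded mRNA kit.

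Values were taken as log2(FPKM + 1), and genes averaging 1 FPKM or more were fitted with limma 3.58.1 in R 4.3.3 (lmFit, eBayes with trend), with Benjamini-Hochberg adjustment over 10865 genes and a threshold of 0.05. The spacing of low values gave a rough depth, but only 59% of 1628 low values were whole fragments within 0.05, so no count test was run. The fragment numbers given cover counting error only.

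The members and gene lists were chosen with earlier results of these data known. The text names all members and the 4 partners of CD177. Of each other list it names the 2 genes of smallest unadjusted p, except for the T, B, NK, stromal, dendritic and eosinophil lists. It also names expressed genes of the Ly6 cluster and the 3 closest profiles per member (for Ly6c2 only the closest is reported here). Chi3l3, Cx3cr1, Flt3, Prg2, Csf3r, Ctsg, Elane, Fcnb, Mmp8, Mpo, S100a8 and S100a9 were added once values had been seen. Lists covered other Ly6 and urokinase receptor genes, GPI anchor synthesis, CD177 partners, interferon-stimulated genes and markers of neutrophils, classical and non-classical monocytes, stem and progenitor, T, B, NK, endothelial, stromal, dendritic and eosinophil cells. Promoters came from RefSeq (GRCm38.p6), which matched 4 of the 7 genes, and coding sequences from GENCODE M21. Alternatives changed the pseudocount, filter, scaling, trend, library weights, replicate block, small RNA genes and each library in turn.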

Additional observations from a re-analysis of the deposited data

How the results depend on the processing

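Ly6c1, Ly6a, Ly6e, Ly6i and Cd177 kept their sign and stayed short of the threshold under all 16 alternatives, with limma adjusted p-values from 0.501 to 0.9995 for Cd177 and from 0.513 to 0.9995 for Ly6i. Quantile normalization turned the log2 fold change of Ly6c2 to 0.0081 and that of summed Ly6c1 and Ly6c2 to 0.008. Leaving out single libraries gave -0.0448 to 0.0116 for Ly6c2 and -0.0458 to 0.0093 for the sum, with signs turned without CTLA4-Ig library 2 (0.0116 and 0.0093) and without control library 1 (0.009 and 0.007). Over the same omissions Ly6i ran from 0.39 without control library 2 to 0.88 without control library 3, and Ly6a from 0.17 to 0.46. Genes called numbered 0 to 6, with 6 without CTLA4-Ig library 3, 2 without CTLA4-Ig library 1 or control library 3, and 0 without control library 1; no member was among them. Members with groups that did not overlap numbered 2 to 4, with 4 without CTLA4-Ig library 1 (23.1% of all genes) or control library 2 (20.4%). The neutrophil median was 0.19 with quantile normalization, the endothelial median 0.03 with no filter on low values, and the stem and progenitor median 0.0217 with array weights; the cause was not tested. Leaving out single libraries turned the sign of several medians, among them the GPI median (-0.05 to 0.01) and the B cell median (-0.19 to 0.03). The interferon-stimulated median was -0.04 without CTLA4-Ig library 1, and the non-classical monocyte median -0.01 without CTLA4-Ig library 3. Array weights also turned signs, to -0.15 for the interferon-stimulated, -0.22 for the stromal and -0.02 for the non-classical monocyte median. T cell markers gave no value at a mean of at least 5 FPKM. Centred within groups, libraries of the same replicate number had correlations of -0.154, -0.0942 and -0.0235, and those of different numbers -0.0389 to 0.132. With 3 libraries per group these values cannot show whether same-number libraries were paired. With the replicate block 0 genes were called and 619 had an unadjusted p under 0.05 in limma. Cd177 and Ly6i then had adjusted p-values of 0.704 and 0.841 in limma. The 3 libraries per group and the few fragments of Ly6i, Ly6a and Ly6c1 limit what could be detected.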
